A study of Danio rerio with 16 samples.

Results

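The Hnf4 nuclear receptors and the factors of their regulatory circuit were followed through whole zebrafish embryos with and without a knockout of hnf4a and hnf4b. The set was chosen by symbol and holds 9 genes: the paralogs hnf4a, hnf4b and hnf4g, the Hnf1 gene hnf1ba, the FoxA genes foxa1, foxa2 and foxa3, and the homeodomain genes prox1a and hhex. All 9 were among the 36109 gene symbols of the count table, and all 9 were among the 24084 genes tested. The 16 libraries were made from whole embryos, 4 in each of 4 groups. Siblings, labelled sib and untreated, and embryos labelled hnf4a,hnf4b knockout, made by CRISPR/Cas9, were each sampled at 34 and 48 hours post-fertilisation (hpf). The labels give neither the mutant alleles, nor the genotype of the siblings at these loci, nor the number of embryos in a library, nor whether the repeats came from separate clutches. The p-values therefore measure the spread between these libraries, which may be technical.

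Hnf4 proteins are nuclear receptors that bind DNA as dimers and drive genes of lipid transport and metabolism in liver, gut, kidney and, in fish, the yolk syncytial layer. In mammals they form a circuit with the Hnf1 homeodomain factors. FoxA proteins are forkhead factors that open chromatin early in endoderm and also mark the floor plate. Hhex and Prox1 are homeodomain proteins needed for the growth of the liver bud, and Prox1 also serves in lens, retina, lymphatic vessels and slow muscle.

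Total counts ran from 34588058 to 43194625 per library. Markers of many tissues were present in each group, from epidermis (6 genes, at least 15977 CPM, counts scaled to library size, in sum) to exocrine and endocrine pancreas (8 genes, at least 8.25 CPM in sum). Of 13 lists of tissue markers, the yolk syncytial layer, hepatocyte and intestinal lists were the ones whose summed levels were lower in every knockout than in every sibling library at both stages. Such sums weigh the most abundant genes of a list most. At 48 hpf 4 of 7 yolk syncytial layer (hnf4a left out), 8 of 11 hepatocyte and 5 of 7 intestinal markers tested were called lower. In the same order, 1, 1 and 0 were called higher. The yolk syncytial layer list includes the lipid transport genes apobb.1, apoa1b and apoa4b.1. Genes of lipid transport are among those that Hnf4 drives, so these sums do not measure the amount of tissue. Epidermal markers were higher in the knockouts of 48 hpf (19819 to 21452 CPM, against 15977 to 17983 CPM in siblings), with 2 of 6 called higher. Of the 6 thyroid and pharyngeal and the 6 erythroid markers edgeR, DESeq2 and limma-voom called 0 at either stage, and at an unadjusted p under 0.05 edgeR gave 1 higher at each stage for the former and 0 for the latter. Erythroid sums spread widely within groups, from 213 to 1382 CPM in siblings of 34 hpf and 281 to 2270 CPM in knockouts of 48 hpf. Replicate 4 was the lowest in each group, so the 0 erythroid calls do not show a lack of change. Levels are CPM on library sizes scaled by the TMM method. They are compared between groups and never between genes, since the table gives no transcript lengths.

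Between the genotypes, genes of the set were called only at 48 hpf. None of the 9 genes was called at 34 hpf, and at 48 hpf hnf1ba and foxa2 rose while prox1a fell. Except where stages are compared, rose and fell mean higher and lower in knockouts than in siblings of that stage. Calls rest on edgeR's quasi-likelihood test over all genes, at a Benjamini-Hochberg adjusted p under 0.05. At 34 hpf 0 of 9 were higher and 0 lower, where 4.09% of all genes tested were called higher and 5.21% lower. At an unadjusted p under 0.05, 2 of 9 were higher and 0 lower, and DESeq2 and limma-voom called 0 as well. At 48 hpf 2 of 9 were higher and 1 lower against 4.76% and 5.28% of all genes. DESeq2 and limma-voom gave the same counts of 2 and 1. The median log2 fold change of the 9 genes was 0.15 at 34 hpf and 0.14 at 48 hpf, beside 0.01 and 0.00 for all genes. Higher genes made up 44.0% of all calls at 34 hpf, and 56.1% with upper quartile scaling. In whole embryos, fewer cells of a type and less RNA per cell cannot be told apart.

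**Figure D1:**
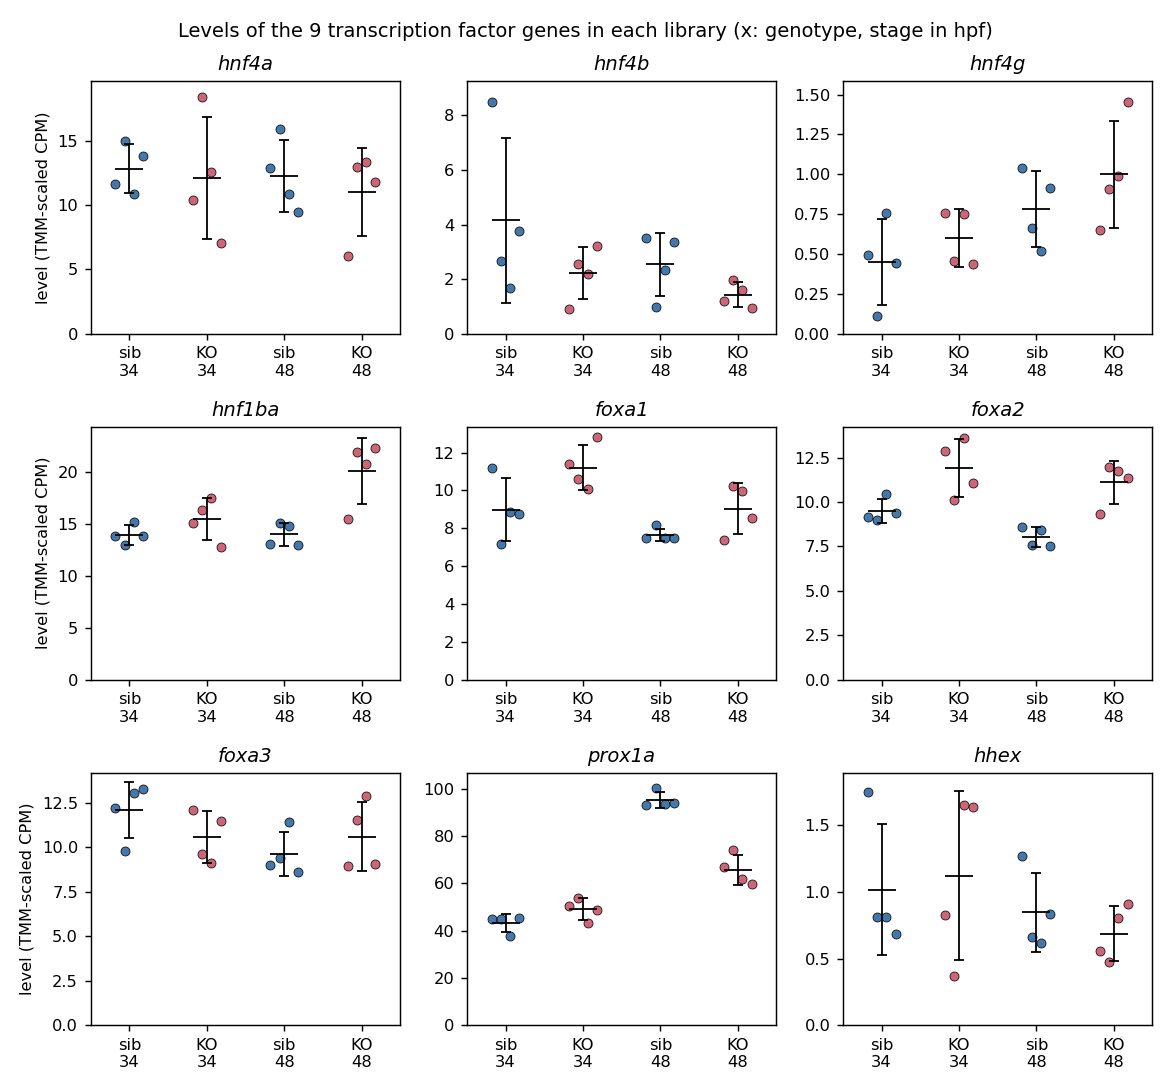
Level of each of the 9 genes (vertical axis, TMM-scaled CPM) in siblings (sib) and knockouts (KO) at 34 and 48 hpf (horizontal axis). Points are libraries in the order of their replicate number, and bars are the mean ± SD of 4 libraries. The groups part for prox1a, hnf1ba and foxa2 at 48 hpf, and the targeted genes hnf4a and hnf4b overlap between genotypes at both stages.

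The targeted genes come first. Transcripts of hnf4a stood at 11.6, 15.0, 10.8 and 13.8 CPM in siblings of 34 hpf (replicates 1 to 4) and at 10.4, 18.4, 12.6 and 7.08 CPM in knockouts. At 48 hpf they stood at 12.9, 15.9, 10.8 and 9.46 CPM in siblings and at 6.04, 12.9, 13.4 and 11.8 CPM in knockouts. The genotypes overlapped at both stages. The highest value of 34 hpf was in a knockout and that of 48 hpf in a sibling library, and the lowest was in a knockout each time. The log2 fold change was -0.08 ± 0.27 (SE) at 34 hpf, with a 95% interval of -0.66 to 0.49, and -0.15 ± 0.27 at 48 hpf, with an interval of -0.73 to 0.42. The adjusted p was 0.897 and 0.789, so the counts of hnf4a do not check the genotype labels.

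The second targeted gene, hnf4b, varied most among siblings of the earlier stage. It stood at 8.50, 2.66, 1.66 and 3.78 CPM in siblings and at 0.925, 2.56, 2.18 and 3.20 CPM in knockouts of 34 hpf. At 48 hpf the values were 3.5, 0.995, 2.35 and 3.37 CPM in siblings and 1.21, 1.99, 1.62 and 0.936 CPM in knockouts. The genotypes overlapped at both stages, although the mean was lower in knockouts each time. On the log2 scale knockouts differed from siblings by -0.91 ± 0.48 (adjusted p = 0.269) at 34 hpf, then -0.83 ± 0.49 (adjusted p = 0.329) at 48 hpf. Sibling replicate 1 carried much of the first, which was -0.29 without it. The raw counts ran from 36 to 311 per library.

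The paralog that was not targeted, hnf4g, was close to the limit of detection. Its counts ran from 4 to 62 per library, with 0.450 ± 0.267 CPM in siblings and 0.601 ± 0.179 CPM in knockouts at 34 hpf (mean ± SD, n = 4). At 48 hpf they were 0.783 ± 0.236 and 1.00 ± 0.334 CPM. The log2 fold changes of 0.42 ± 0.46 (adjusted p = 0.649) and 0.35 ± 0.44 (adjusted p = 0.697) have 95% intervals from -0.58 to 1.42 and from -0.61 to 1.31. The genotypes overlapped at both stages. Without sibling replicate 2 the value at 34 hpf was 0.0985, and without sibling replicate 3 it was 0.79. At 48 hpf the alternatives ran from 0.12 to 0.48, and none gave a call at either stage.

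The Hnf1 gene of the set, hnf1ba, which acts in pronephros, gut and hindbrain, rose at the later stage. At 34 hpf it stood at 13.8, 12.9, 15.2 and 13.8 CPM in siblings and at 15.1, 16.3, 17.5 and 12.7 CPM in knockouts, and the groups overlapped. At 48 hpf it stood at 13.1, 15.1, 14.7 and 12.9 CPM in siblings and at 15.4, 21.9, 20.7 and 22.3 CPM in knockouts. Every knockout library of 48 hpf lay above every sibling library, with replicate 1 well below the other knockouts. On the log2 scale the change was 0.15 ± 0.12 (adjusted p = 0.529) at 34 hpf, then 0.52 ± 0.12 (adjusted p = 0.0118) at 48 hpf. The latter was lost without sibling replicate 1 of 48 hpf (0.46, adjusted p = 0.0536) and kept in the other 24 alternatives. The difference between the stages was not called (0.38 ± 0.18, adjusted p = 0.664).

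Its close paralog hnf1bb was at -0.18 ± 0.22 (adjusted p = 0.692) and -0.11 ± 0.22 (adjusted p = 0.825). Markers of the pronephros, a site of hnf1ba expression, summed to 349 to 365 CPM in siblings and 365 to 388 CPM in knockouts of 48 hpf, and 2 of 10 were called higher. The part of these markers in the rise of hnf1ba was not tested.

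Among the FoxA genes, foxa2, of the endoderm and floor plate, rose at 48 hpf. It stood at 9.13, 8.96, 10.4 and 9.38 CPM in siblings and at 12.9, 10.1, 13.6 and 11.0 CPM in knockouts of 34 hpf. At 48 hpf it stood at 8.58, 7.57, 8.43 and 7.54 CPM in siblings and at 9.31, 12, 11.8 and 11.4 CPM in knockouts. The groups touched at 34 hpf through sibling replicate 3 and knockout replicate 2, and were apart at 48 hpf. Knockouts exceeded siblings by 0.33 ± 0.12 on the log2 scale at 34 hpf, which was not called (adjusted p = 0.0917; 0.122 with the replicate block), with the knockout higher in 4 of 4 same-numbered pairs. At 48 hpf the excess was 0.47 ± 0.12 (adjusted p = 0.0177), and their difference was 0.14 ± 0.17 (adjusted p = 0.962). Omitting any 1 of 3 libraries of 48 hpf ended the call for foxa2: sibling replicate 2, sibling replicate 4 and knockout replicate 3 (adjusted p = 0.0602, 0.0528 and 0.0520). Markers of floor plate and notochord summed to 386 to 425 CPM in siblings and 371 to 420 CPM in knockouts of 48 hpf, with 1 of 10 called higher and 1 lower. At 34 hpf they summed to 363 to 381 CPM in siblings and 355 to 394 CPM in knockouts, with 2 of 10 called higher and 0 lower. The part of these markers in the rise of foxa2 was not tested.

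The other FoxA genes of the set, foxa1 and foxa3, were not called at either stage. The log2 fold change of foxa1, which is expressed in endoderm and other epithelia, was 0.32 ± 0.14 (adjusted p = 0.176) at the earlier and 0.24 ± 0.14 (adjusted p = 0.329) at the later stage. It stood at 7.17 to 11.2 CPM in siblings and 10.1 to 12.8 CPM in knockouts of 34 hpf, and at 7.46 to 8.15 and 7.38 to 10.3 CPM at 48 hpf, so the genotypes overlapped at both stages. In same-numbered pairs of 34 hpf foxa1 was higher in the knockout in 4 of 4 (adjusted p = 0.143 with the replicate block). For foxa3, which marks the gut tube, liver and pancreas, the values were -0.19 ± 0.15 (adjusted p = 0.486) and 0.14 ± 0.15 (adjusted p = 0.631). Its 95% intervals ran from -0.51 to 0.13 and from -0.18 to 0.46. In same-numbered pairs of 34 hpf foxa3 was higher in the knockout in 0 of 4 (-0.19, adjusted p = 0.353 with the replicate block).

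A further forkhead gene of the family, foxa, stood outside the chosen 9 and was singled out after its values were seen. At 48 hpf it stood at 5.03, 4.20, 4.50 and 4.45 CPM in siblings and at 6.17, 7.33, 8.89 and 6.01 CPM in knockouts. All knockout libraries were above all sibling libraries, and the log2 fold change was 0.64 ± 0.14 (adjusted p = 0.00702). At 34 hpf it was 0.20 ± 0.14 (adjusted p = 0.420).

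**Figure D2:**
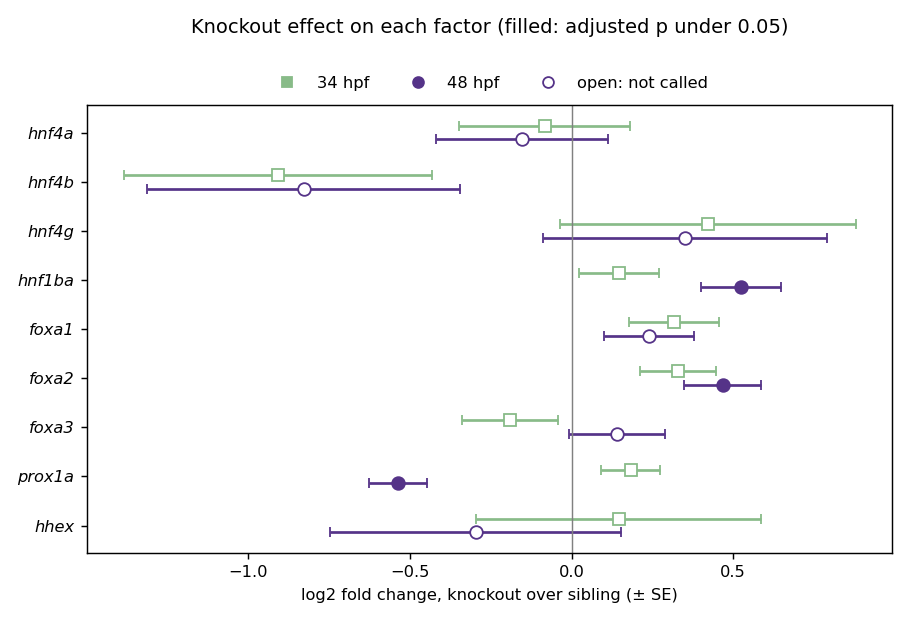
Log2 fold change of knockouts over siblings (horizontal axis, ± SE) for each of the 9 genes (vertical axis), at 34 hpf (squares) and 48 hpf (circles). Filled marks have an adjusted p under 0.05 in edgeR's quasi-likelihood test. The prox1a mark lies at 0.18 at 34 hpf and at -0.54 at 48 hpf.

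The clearest change within the set was that of prox1a. At 34 hpf it stood at 44.9, 45.1, 37.7 and 45.3 CPM in siblings and at 50.6, 54.0, 43.1 and 48.8 CPM in knockouts. At 48 hpf it stood at 93.2, 101, 93.6 and 94.1 CPM in siblings and at 66.8, 74.2, 61.8 and 59.8 CPM in knockouts. The genotypes overlapped at 34 hpf, and at 48 hpf every knockout library was below every sibling library. The log2 fold change was 0.18 ± 0.09 (adjusted p = 0.236) at 34 hpf, then -0.54 ± 0.09 (adjusted p = 0.000950) at 48 hpf. The fall at 48 hpf held in all 25 alternatives, with adjusted p of at most 0.00537.

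The knockout effect on prox1a differed between the stages, by -0.72 ± 0.13 on the log2 scale (adjusted p = 0.0228). Of the 9 genes 0 had a difference called higher and 1 called lower, against 0.0872% and 0.116% of all genes. At an unadjusted p under 0.05, 1 of the 9 was higher and 1 lower, and DESeq2 and limma-voom gave the same adjusted counts as edgeR. The order of the group means was 43.3 ± 3.73 CPM in siblings and 49.1 ± 4.58 CPM in knockouts of 34 hpf, 65.7 ± 6.42 CPM in knockouts and 95.4 ± 3.48 CPM in siblings of 48 hpf (n = 4). The lowest neighbours, the genotypes of 34 hpf, overlapped as groups. In same-numbered pairs, which the labels do not state, prox1a was higher in the knockout in 4 of 4. That difference was not called with the replicate block either (0.18, adjusted p = 0.155). The call on the difference was lost when any 1 of 5 libraries was left out: sibling replicate 3 of 34 hpf, sibling replicates 2 and 3 of 48 hpf, and knockout replicates 3 and 4 of 48 hpf. The log2 difference then ran from -0.73 to -0.66 and the adjusted p from 0.0565 to 0.0721.

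Markers of tissues that express prox1a are given beside it. Those of retina and neurons summed to 1182 to 1320 CPM in siblings and to 812 to 1067 CPM in knockouts of 48 hpf, and 4 of 7 were called lower and 1 higher. At 34 hpf they summed to 628 to 651 CPM in siblings and 429 to 634 CPM in knockouts, which overlapped. There edgeR and DESeq2 called 3 of 7 lower, and limma-voom called 1. Hepatocyte markers summed to 1842 to 3142 CPM in siblings and 232 to 875 CPM in knockouts of 48 hpf, with 8 of 11 lower and 1 higher. At 34 hpf they summed to 3119 to 3994 CPM and 999 to 2308 CPM, with 6 of 11 lower and 1 higher. In siblings the median of the hepatocyte sums was 3518 CPM at 34 hpf and 2586 CPM at 48 hpf. The median log2 fold change of the 11 genes between these stages was 0.31, and 0 were called. Tissues other than the liver as a source of these markers were not tested. The hepatocyte marker itih3a was at 0 counts in the knockouts of both stages, so it passed the filter on low counts through siblings alone. No other marker of any list was at 0 in a whole group. Lens markers overlapped at 48 hpf (1006 to 1088 and 804 to 1122 CPM), and those of slow muscle did so as well (1740 to 1953 and 1901 to 2128 CPM). Of these 9 and 6 markers edgeR called 0 at 48 hpf, where 0 had an unadjusted p under 0.05 and DESeq2 and limma-voom called 0. Of 10 endothelial and lymphatic markers 1 was called higher at 48 hpf. The paralog prox1b was at -0.21 ± 0.16 (adjusted p = 0.455) at 48 hpf. The part of any of these tissues in the fall of prox1a was not tested.

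**Figure D3:**
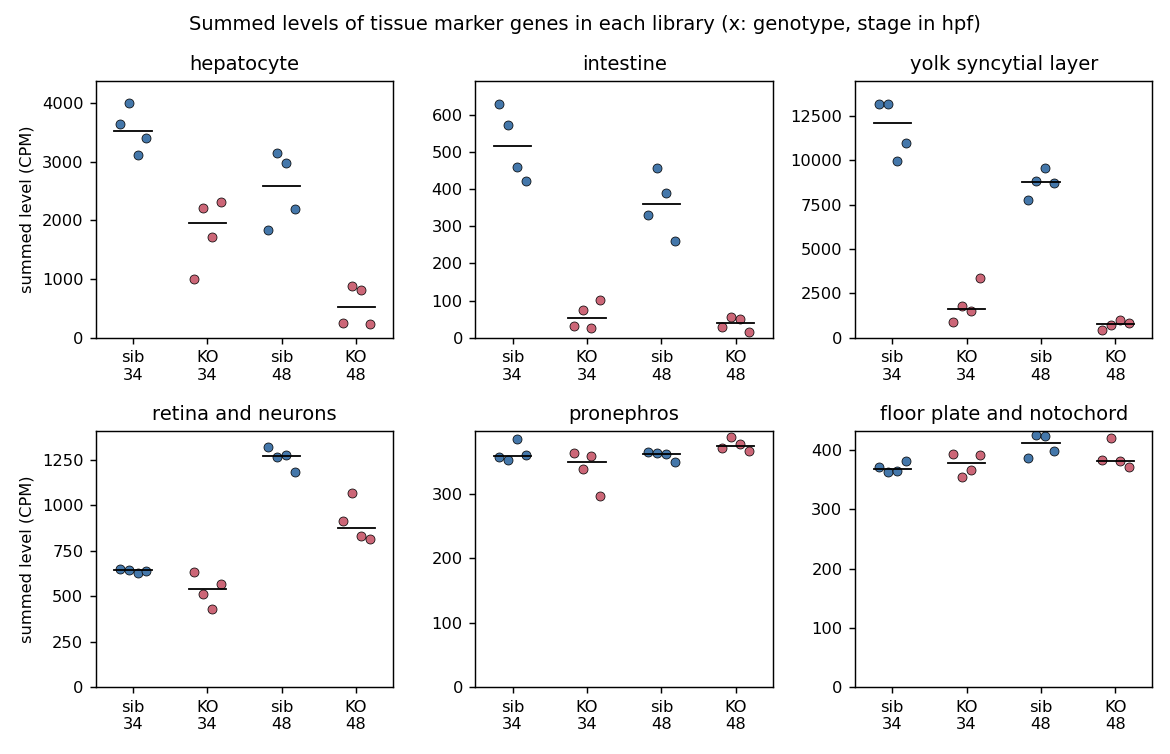
Summed levels of marker genes of 6 tissues (vertical axis, CPM) in each library, by genotype and stage (horizontal axis; sib, siblings; KO, knockouts; numbers are hpf). Points are libraries and lines are group medians. Sums of hepatocyte, intestinal and yolk syncytial layer markers were lower in every knockout library. Those of retina and neurons were lower at 48 hpf without overlap. Those of floor plate and notochord overlapped at both stages, and those of pronephros overlapped at 34 hpf and were just apart at 48 hpf.

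The last of the set, hhex, of the early liver and pancreas, thyroid and endothelium, was scarce. Its counts ran from 13 to 66 per library. At 34 hpf it stood at 1.75, 0.815, 0.816 and 0.688 CPM in siblings and at 0.830, 0.369, 1.65 and 1.64 CPM in knockouts. At 48 hpf the means were 0.847 ± 0.297 and 0.689 ± 0.205 CPM (n = 4). The log2 fold change was 0.15 ± 0.44 (adjusted p = 0.892) at 34 hpf, then -0.30 ± 0.45 (adjusted p = 0.757) at 48 hpf, with intervals from -0.82 to 1.11 and from -1.28 to 0.68.

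Between 34 and 48 hpf prox1a rose in both genotypes and hnf1ba rose in knockouts. In siblings prox1a rose 2.2-fold (1.14 ± 0.09 on the log2 scale, adjusted p = 6.00e-08), and 1 of 9 genes was higher and 0 lower, against 18.3% and 15.7% of all genes. In knockouts prox1a rose 1.34-fold (0.42 ± 0.09, adjusted p = 0.00212) and hnf1ba 1.30-fold (0.38 ± 0.12, adjusted p = 0.0293). That is 2 of 9 higher and 0 lower, against 15.5% and 12.1% of all genes. At an unadjusted p under 0.05, 1 gene was lower in each genotype, and DESeq2 and limma-voom called 0 lower. The rise of hnf1ba was lost in a fit of the knockouts alone (adjusted p = 0.105). It was also lost without knockout replicates 1 or 4 of 34 hpf or 2, 3 or 4 of 48 hpf (adjusted p from 0.0521 to 0.0862). The other 7 genes were not called in either genotype, among them foxa2, whose siblings of 48 hpf all lay below those of 34 hpf (-0.24 ± 0.12, adjusted p = 0.136). The genotype comparisons and the stage comparisons share libraries, so they are not independent of each other.

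Beyond the set, intestinal markers summed to 261 to 457 CPM in siblings and 15.3 to 55.6 CPM in knockouts of 48 hpf, with 5 of 7 called lower. Yolk syncytial layer markers, hnf4a left out, summed to 7771 to 9548 CPM in siblings and 429 to 1014 CPM in knockouts of 48 hpf. Of the 7 of them that were tested, 4 were called lower and 1 higher at each stage, and the median log2 fold change was -1.03 at 34 hpf and -1.14 at 48 hpf.

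In the list of Hnf4 partners and orphan receptors, 3 of 21 genes tested rose at 34 hpf, and 2 rose at 48 hpf. Of all genes tested, 4.09% and 4.76% were higher. The gene nr0b2a, an orphan receptor without a DNA-binding domain that in mammals represses HNF4A targets, rose at both stages. It stood at 51.4, 29.8, 60.4 and 61.2 CPM in siblings and at 85.2, 149, 115 and 137 CPM in knockouts of 34 hpf. At 48 hpf it stood at 52.4, 35, 43.5 and 36.2 CPM in siblings and at 47.3, 96.0, 116 and 103 CPM in knockouts. The groups were apart at 34 hpf and overlapped at 48 hpf through knockout replicate 1. Its log2 fold change was 1.26 ± 0.26 (adjusted p = 0.00517) and 1.12 ± 0.26 (adjusted p = 0.0107), and it kept its call in all 25 alternatives at each stage.

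The orphan receptor gene nr2f6b rose at 48 hpf (0.39 ± 0.08, adjusted p = 0.00551). Its relatives nr2f1a (0.29 ± 0.09, adjusted p = 0.0441) and nr2f1b (0.35 ± 0.10, adjusted p = 0.0457) were higher at 34 hpf close to the threshold. Those calls were lost in 16 and 15 of 25 alternatives, 13 of them omissions of 1 library in each case, with adjusted p of up to 0.139 and 0.159. With the replicate block nr2f1a was no longer called (adjusted p = 0.0628).

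In the list of other hepatic factors, 4 of 17 rose at 34 hpf and 5 of 17 at 48 hpf, with 0 lower at either stage. At an unadjusted p under 0.05 in edgeR 0 were lower as well, and DESeq2 and limma-voom called 0 lower. For comparison, edgeR's calls over the whole table were 4.09% higher and 5.21% lower at 34 hpf, then 4.76% and 5.28% at 48 hpf. At such shares, 0 lower of 17 does not show a lack of lower genes. The medians of the 17 genes were 0.25 and 0.35 on the log2 scale, beside 0.01 and 0.00 for all genes. The gene cebpd, a leucine zipper factor of acute and stress responses, stood at 21.0, 19.4, 22.0 and 14.5 CPM in siblings and at 71.3, 49.7, 51.0 and 41.0 CPM in knockouts of 48 hpf. The groups were far apart, with knockout replicate 1 the highest, and the log2 fold change was 1.47 ± 0.16 (adjusted p = 1.78e-05). At 34 hpf it was 0.64 ± 0.16 (adjusted p = 0.0171), lost without sibling replicates 3 or 4 (adjusted p = 0.0596 and 0.0501).

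The T-box gene tbx3a, needed for liver bud growth in mice, rose by 0.75 ± 0.13 at 34 hpf (adjusted p = 0.00148) and 0.54 ± 0.13 at 48 hpf (adjusted p = 0.0131). The zinc finger gene sall4 rose by 0.50 ± 0.14 (adjusted p = 0.0294) and 0.79 ± 0.14 (adjusted p = 0.00158). For sall4, omitting sibling replicate 2 or 3, or knockout replicate 1 or 3, ended the call of 34 hpf (adjusted p = 0.0758 to 0.0976). The gene cebpg rose by 0.38 ± 0.09 (adjusted p = 0.0135) and 0.46 ± 0.09 (adjusted p = 0.00354). The cut-homeobox gene onecut1, named after its values were seen, rose at 48 hpf (0.38 ± 0.09, adjusted p = 0.0167). Omitting sibling replicate 1, sibling replicate 2 or knockout replicate 1 ended the onecut1 call (adjusted p = 0.0546 to 0.0583). The hepatocyte factor gene cebpa was at 0.10 ± 0.15 (adjusted p = 0.764) and 0.27 ± 0.15 (adjusted p = 0.321).

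In the list of other endoderm, gut and pancreas factors, 0 of 22 genes tested rose and 1 fell at 34 hpf, and 4 rose and 2 fell at 48 hpf. The shares of all genes were 4.09% and 5.21% at 34 hpf, and 4.76% and 5.28% at 48 hpf. At 34 hpf 5 were higher at an unadjusted p under 0.05, DESeq2 called 2 higher and limma-voom 0. The medians were 0.05 and 0.26 on the log2 scale, beside 0.01 and 0.00 for all genes. The posterior homeobox gene cdx4 stood at 0.726, 0.387, 0.362 and 0.700 CPM in siblings and at 1.81, 1.82, 1.71 and 1.36 CPM in knockouts of 48 hpf. Its counts there were low and all even, at 28, 14, 14 and 26 in siblings and 78, 76, 76 and 58 in knockouts. All knockout libraries were above all sibling libraries, and the log2 fold change was 1.62 ± 0.27 (adjusted p = 0.000900). The intestinal factor gene cdx1b was at -0.94 ± 0.26 (adjusted p = 0.0290) at 34 hpf, then at -0.55 ± 0.24 (adjusted p = 0.170) at 48 hpf. The first call was lost in limma-voom (adjusted p = 0.0633), in a fit of the 34 hpf libraries alone (adjusted p = 0.134) and without sibling replicates 3 or 4 or knockout replicate 2 (adjusted p = 0.0633 to 0.100).

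Among factors shared by the endocrine pancreas and the nervous system, nkx6.1 was higher in knockouts of 48 hpf (0.40 ± 0.08, adjusted p = 0.00296). There neurod1 (-0.73 ± 0.13, adjusted p = 0.00203), also counted in the list of retina and neurons, and pax6b (-0.41 ± 0.07, adjusted p = 0.00180) were lower. The gene insm1a, named after its values were seen, was higher (0.55 ± 0.12, adjusted p = 0.00630). Of the 8 pancreas markers edgeR called 0 at either stage, 0 had an unadjusted p under 0.05, and DESeq2 and limma-voom called 0. Their sums overlapped at 48 hpf (10.8 to 16.4 CPM in siblings and 11.0 to 18.4 CPM in knockouts). The endodermal GATA genes were not called, with gata4 at 1.34 ± 0.46 (adjusted p = 0.0748), gata5 at -0.28 ± 0.11 (adjusted p = 0.114) and gata6 at 0.64 ± 0.27 (adjusted p = 0.145) at 48 hpf. From 34 to 48 hpf, siblings fell in cdx4 (-2.10 on the log2 scale), nr2f6b (-1.39), foxa (-1.11), sall4 (-0.76), onecut1 (-0.48) and nkx6.1 (-0.34). Those were higher in knockouts of 48 hpf. Siblings rose in neurod1 (1.64) and pax6b (0.71), which were lower in knockouts. They also rose in cebpg (0.26), which was higher in knockouts, and cebpd, tbx3a, nr0b2a and insm1a were not called. These genes were named for their genotype calls. The siblings of 48 hpf enter both comparisons with opposite signs, so opposite directions are partly built in. The part of a lag in stage in these genotype differences was not tested.

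**Figure D4:**
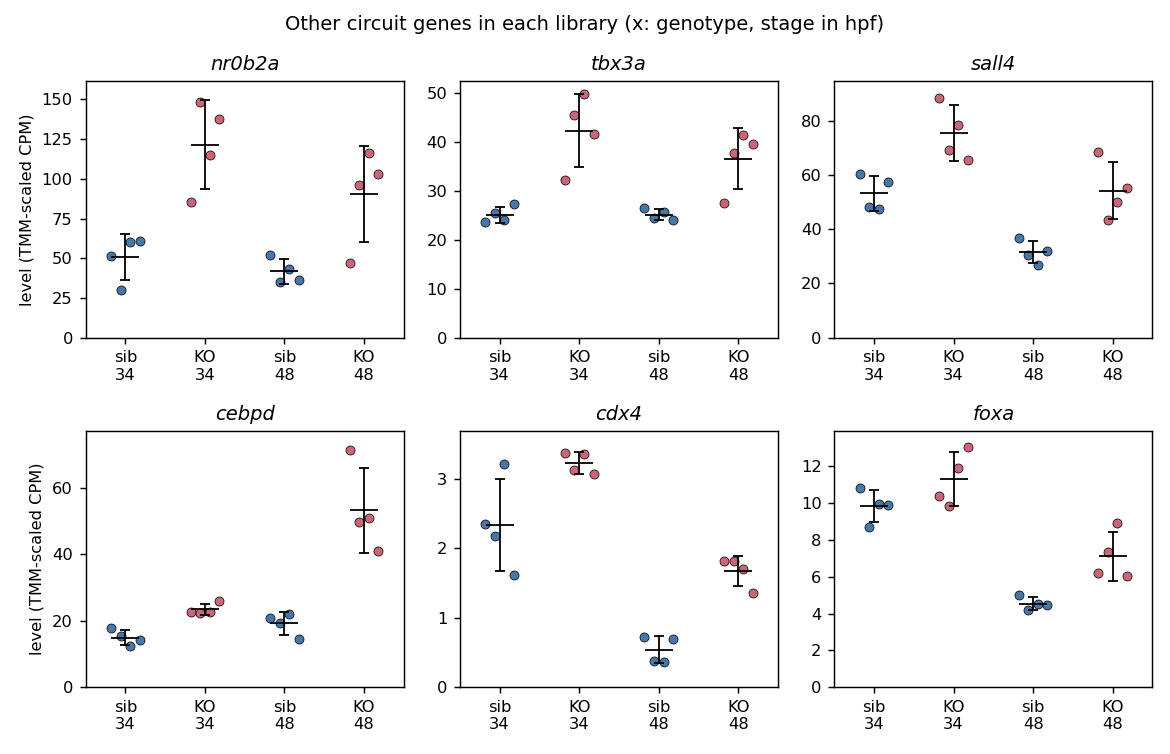
Level of 6 circuit genes outside the set (vertical axis, TMM-scaled CPM) in siblings (sib) and knockouts (KO) at 34 and 48 hpf (horizontal axis). Points are libraries in the order of their replicate number, and bars are the mean ± SD of 4 libraries. At 48 hpf tbx3a, sall4, cebpd, cdx4 and foxa are higher in every knockout than in every sibling library, and nr0b2a overlaps through knockout replicate 1.

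The genes whose pattern over the 16 libraries was closest to that of each called member were found by the root mean square difference of centred log2 CPM, among 14305 genes. For prox1a these were tfap2a (0.13) and lmo4b (0.14), where the median gene differed by 0.53. For hnf1ba they were bmp2b (0.12) and clcn6 (0.15), against a median of 0.39. For foxa2 they were tnrc18 (0.12) and pim1 (0.13), against a median of 0.37. The 16 libraries are shared by all these genes, so the distances only describe likeness.

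Some libraries were low for several of the set at once. Knockout replicate 1 of 48 hpf held the lowest level of its group for 6 of the 9 genes (hnf4a, hnf4g, hnf1ba, foxa1, foxa2 and foxa3). Without it, hnf1ba was at 0.60, foxa2 at 0.51 and prox1a at -0.58 on the log2 scale at 48 hpf, and all 3 kept their calls. Sibling replicate 2 of 34 hpf and sibling replicate 4 of 48 hpf were each the lowest of their group for 5 of the 9, hnf1ba, foxa1, foxa2 and foxa3 among them both times.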

How the data were processed

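Per the labels' protocols, libraries were made from TRIzol extracts of whole embryos. The deposited values are raw read counts per gene, not normalized. The submitters' processing notes name FastQC 0.12.1, Trim Galore 0.6.10, STAR 2.7.10b, featureCounts 2.0.6 and the GRCz11 build. For strand, multi-mapping reads and annotation, the setting is not given in the sources used here, so counts of close paralogs and overlapping genes are uncertain.

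Genes were filtered with filterByExpr, scaled by TMM and tested in edgeR 4.0.16 (R 4.3.3) by the quasi-likelihood test over all 16 libraries in 4 groups, with Benjamini-Hochberg adjustment over all genes tested. Intervals use the SE and 12 residual degrees of freedom. DESeq2 1.42.0 and limma 3.58.1 (voom) were alternatives, with other scalings, no filter, the compared libraries alone, a replicate block and each library left out. Leaving out a library of the other stage can change a genotype comparison only through the shared filter, scaling, spread and p adjustment. Counts of alternatives include such fits. The code was tested on simulated data. Genes outside the 9 were named from 3 lists of circuit genes by a rule on calls, and 13 marker lists were summed. Members, lists and rules were chosen with earlier results of these data known.

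Same-numbered siblings and knockouts deviated together (correlations of 0.155 to 0.279 at 34 hpf and 0.174 to 0.430 at 48 hpf). The numbers from the titles were taken to pair the libraries in the replicate block and in the counts of pairs. That choice was made on these same data, so the counts of pairs only describe the libraries. Counts given above are of genes that went the same way in all pairs of 34 hpf. At 34 hpf the knockout was higher in 2 of 4 pairs for hnf4a, hnf4g and hhex, 1 for hnf4b and 3 for hnf1ba. The labels state no such pairing, and the main test did not use it. In 4 of 8 pairs the best match of a sibling library was a knockout of another number. The smallest mean chi-square per gene between replicates was 7.51, above what repeat sequencing of 1 library would give. It cannot tell repeat libraries of the same RNA from separate samples. The largest values, 115, 88.5 and 66.6, were those of knockout replicate 4 of 34 hpf against the others of its group. Promoter and protein sequences and per-length levels were not analysed here, and 1 gene of the circuit lists is not reported here.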

Additional observations from a re-analysis of the deposited data

Results flagged for a closer look

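The knockout effect on prox1a differed between stages by -0.72 on the log2 scale, by a test of the difference itself.

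In groups of 4 libraries, the library farthest out was set apart from its neighbour by Dixon's criterion in 4 of 36 groups of the 9 genes and 4 of 68 groups of the other named genes, where chance gives about 1 in 20. Among the 9 genes, foxa1 was at 8.15 CPM in sibling replicate 2 of 48 hpf, above 7.50 CPM in the nearest library. The gene prox1a was at 37.7 CPM in sibling replicate 3 of 34 hpf, below 44.9 CPM, and at 101 CPM in sibling replicate 2 of 48 hpf, above 94.1 CPM. The level of hhex was 1.75 CPM in sibling replicate 1 of 34 hpf, above 0.816 CPM. Among the others, nr2f1b was at 20.2 CPM in sibling replicate 3 of 48 hpf and cebpd at 26.0 CPM in knockout replicate 4 of 34 hpf. The level of nkx6.1 was 41.4 CPM in knockout replicate 2 of 48 hpf, and that of insm1a was 103.6 CPM in sibling replicate 1 of 48 hpf.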

How the results depend on the processing

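Of the counts of called members, 229 values under alternatives stayed within 1.5 times and 15 moved. The 229 include counts of 0 that stayed at 0, and all other counts were 1 or 2 in the main fit. With only the compared libraries, 1 of 9 genes rose in knockouts between stages. On leaving out 1 library, 1 to 2 genes were higher at 48 hpf, 0 to 1 had a difference called lower, and 1 to 2 rose between stages in knockouts. All 43 reversals were of values not called. With upper quartile scaling pax6b at 34 hpf was at 6.73e-06, and with the replicate block the hnf4b difference was at -0.0689. The change of foxa3 between stages in knockouts was -0.0145 with DESeq2 size factors, -0.0155 with upper quartile scaling, -0.0146 in DESeq2 and -0.0062 in limma-voom. On leaving out 1 library, the knockout effect at 34 hpf ran from -0.37 to 0.10 for hnf4a, from -0.10 to 0.54 for hhex and from -0.0138 to 0.0533 for nr2f6b. At 48 hpf it ran from -0.26 to 0.0151 for hnf4a. The difference ran from -0.26 to 0.18 for hnf4a, -0.54 to 0.34 for hnf4b, -0.43 to 0.25 for hnf4g and -0.20 to 0.0153 for foxa1. Siblings' stage changes ran from -0.21 to 0.0433 for hnf4a, -0.0339 to 0.0645 for hnf1ba and -0.49 to 0.13 for hhex. Those of knockouts ran from -0.32 to 0.15 for hnf4a and -0.11 to 0.0845 for foxa3. The causes were not tested.

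Over all genes, calls at 34 hpf were 2240, and 1230 in a fit of the compared libraries, 1386 without sibling replicate 2 and 1456 without knockout replicate 3. At 48 hpf they were 2417, and 1506 and 1550 without sibling replicates 2 and 3. Without knockout replicate 4 of 34 hpf, the library farthest from its group, 3208 genes were called at 34 hpf, and 1982 were lower, against 1255. The difference had 49 calls, 177 in DESeq2 and 24 to 113 with 1 library left out. Between stages 2921 genes fell in knockouts, and 1705 in a fit of the knockouts alone. The replicate block changed no call of the 9 genes, and of the other knockout results only nr2f1a at 34 hpf (adjusted p = 0.0628). It could not be estimated for the stage comparisons. Paralog shares per coding length were not run for want of lengths. The counts of hnf4g and hhex were at most 66 in a library, and the part of depth in their wide intervals was not tested.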

Other observations

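Small counts were even more often than odd. Of counts from 1 to 49, 66.9% to 71.1% were even in each library, against 50.8% to 52.8% of counts from 1000 upward. The counts of hnf4g, cdx4 and cdx1b were even in 16 of 16 libraries. The sources used here do not say whether reads or read pairs were counted, and the cause was not tested.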
